A study of Homo sapiens with 6 samples.

Results

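Persistent SMAD2/3 regions of BT549 cells were examined, that is, places with a listed ChIP-seq peak both at 16 h and at 1.5 h after TGFβ3 in BT549 and with no listed peak in Hs578T at either time. They were found by merging all peaks of the 4 lists that shared at least 1 bp into regions, and by keeping those with a peak in both BT549 lists and in neither Hs578T list. This gave 3468 of 15870 regions. BT549 and Hs578T are established human triple-negative breast cancer lines, which grow in culture with serum and insulin. Chromatin was taken from BT549 cells at 16 h and at 1.5 h of TGFβ3, and from Hs578T cells at 16 h and at 1.5 h of TGFβ3, and was precipitated with 1 antibody against SMAD2/3. All 4 libraries thus come from treated cells, and SMAD2/3 binding without TGFβ3 was not measured in them. The series also holds 2 untreated input DNA samples, 1 per line, which were not analysed here.

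TGFβ activates cell surface receptor kinases that phosphorylate SMAD2 and SMAD3, and these join SMAD4 and move to the nucleus. SMAD complexes contact DNA weakly on their own, and their sites in a given cell type depend largely on partner factors such as AP-1 and on which chromatin is open there. In breast cancer cells TGFβ signalling is known for growth arrest and for epithelial-mesenchymal transition, invasion and spread. An early and a late time are often compared because immediate binding can be followed by feedback inhibition or by lasting occupancy.

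Each list came from 1 library, so there is no replicate error, no difference between times or lines was tested, and no p-value is given. The score of a peak is the authors' own peak-caller value, about 50 at the least, which grows with enrichment and with read depth. The depth of the libraries is unknown from the peak lists. A region absent from a list may therefore be unbound or may have missed the caller's threshold. Positions are on hg19. No gene is named, because no hg19 annotation was used here.

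The persistent regions made up a minority of the BT549-only sites but nearly all of the strongest ones. Of the 13078 BT549 regions without a Hs578T peak, the 3468 persistent ones were 26.5% (25.8 to 27.3, 95% Wilson interval, which here and below covers counting error only). A further 4289 regions were listed only at 16 h and 5321 only at 1.5 h. In terms of peaks, the persistent regions held 3627 of the 8153 BT549 peaks at 16 h, or 44.5% (43.4 to 45.6), and 3642 of the 9225 at 1.5 h, or 39.5% (38.5 to 40.5). Together the regions covered 1631 kb, and a region spanned a median of 439 bp, from 89 to 1921 bp. Among the 311 BT549 regions that did have a Hs578T peak, 160 were listed at both BT549 times, or 51.4% (45.9 to 57.0). The rule for membership used presence in the lists, so these shares are descriptions.

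Recurrence at the other time was graded by score. When the BT549-only regions of the 16 h list were ordered by score, 731 of 775 in the highest decile were also listed at 1.5 h, or 94.3% (92.5 to 95.7), with scores from 183 to 1445. In the lowest decile 190 of 776 were, or 24.5% (21.6 to 27.6), with scores from 50.01 to 55.2. For the 1.5 h list the highest decile, with scores from 229.7 to 2152, recurred at 16 h in 815 of 878 regions, or 92.8% (90.9 to 94.4). The lowest decile of that list, up to a score of 59.2, recurred in 161 of 879, or 18.3% (15.9 to 21.0). The fall was steep in the upper part of each list and flat over the lowest 4 deciles, which ranged from 23.3% to 27.1% at 16 h and from 18.1% to 20.4% at 1.5 h. All of the 100 highest-scoring BT549-only regions of each time were listed at the other time. Of the 1000 highest, 88.5% (86.4 to 90.3) recurred from the 16 h list and 92.0% (90.2 to 93.5) from the 1.5 h list.

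**Figure D1:**
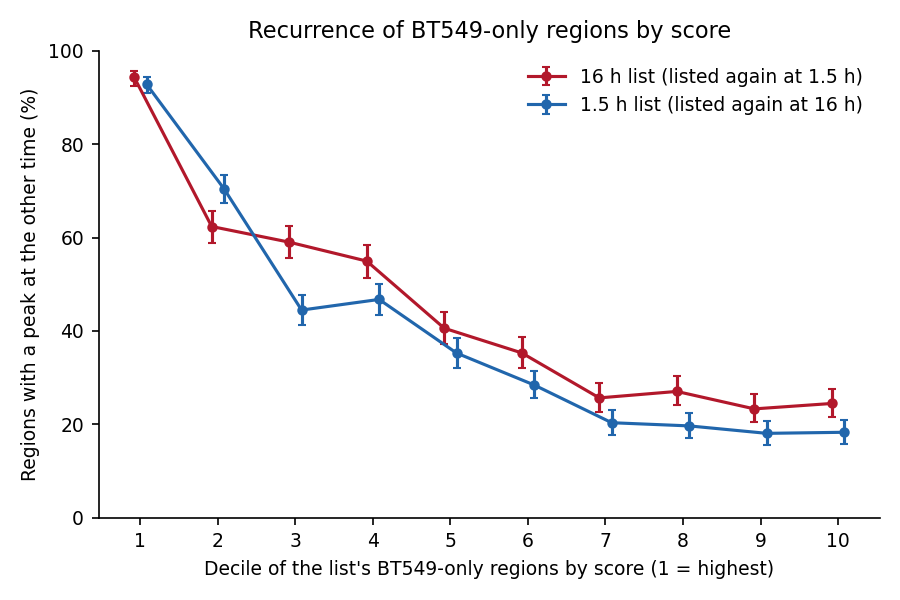
Share of BT549-only regions with a peak at the other time (y axis, percent) by decile of the list ordered by score (x axis, 1 is the highest), for the 16 h list and the 1.5 h list. Points are shares of 1 library each and bars are 95% Wilson intervals; both curves start above 90% and end near 24.5% at 16 h and 18.3% at 1.5 h.

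Scores and widths of the persistent regions lay above those of regions listed at 1 time. At 16 h their median score was 103 (100.3 to 107, binomial interval of the median), with quartiles of 71.5 and 167, against 66.3 (65.8 to 67.3) in regions listed only at 16 h. At 1.5 h the median was 135 (130.4 to 140), with quartiles of 85.7 and 222, against 76.6 (76.0 to 77.4) in regions listed only at 1.5 h. The persistent regions reached 1445 at 16 h and 2152 at 1.5 h, against 251 in regions listed only at 16 h and 392 in regions listed only at 1.5 h. Median peak width was 340 bp at 16 h and 347 bp at 1.5 h in persistent regions, against 207 bp in regions listed only at 16 h and 218 bp in regions listed only at 1.5 h. Peaks under 150 bp made up 4.33% (3.70 to 5.05) of the persistent regions at 16 h and 4.96% (4.29 to 5.73) at 1.5 h. In regions listed only at 16 h they made up 25.02% (23.7 to 26.3), and in those listed only at 1.5 h 17.1% (16.1 to 18.2). The 160 regions with a Hs578T peak that were listed at both BT549 times had median scores of 124 (98.1 to 141) at 16 h and 139 (125 to 166) at 1.5 h. Their highest scores, 2310 at 16 h and 3144 at 1.5 h, lay above those of the persistent BT549-only regions. Their median widths were 334.5 bp at 16 h and 327 bp at 1.5 h. Peaks under 150 bp made up 14.4% (9.77 to 20.6) of them at each time.

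At 16 h 1810 persistent regions scored 100 or more, or 52.2% (50.5 to 53.9), where 33.7% of all regions with a BT549 16 h peak did so. At 1.5 h 2306 reached it, or 66.5% (64.9 to 68.0), where 42.2% of all regions with a BT549 1.5 h peak did. Both times passed that score in 1505 regions, only 16 h in 305 and only 1.5 h in 801. The remaining 857, or 24.7% (23.3 to 26.2), stayed under 100 at both times. Score and presence in the other list come from the same libraries, so nothing is drawn from these shares about the regions as a class.

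The leading persistent regions were among the strongest SMAD2/3 sites of the line. Ordered by the worse of both ranks, the first 15 lay on 10 chromosomes, with scores from 708 to 1445 at 16 h (median 935) and from 861 to 2152 at 1.5 h (median 1108). The first, on chromosome 5 from 64331168 to 64332155, scored 1445 at 16 h and 1702 at 1.5 h. It ranked 6 of all 8153 peaks at 16 h and 5 of all 9225 at 1.5 h. The second, on chromosome 8 from 23398262 to 23399726, was the widest peak of the 1.5 h list among persistent regions (1458 bp) and scored 1085 at 16 h and 2152 at 1.5 h. No other persistent region scored higher at 1.5 h. The nearest Hs578T peak to it lay 4295 kb away.

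Next came chromosome 20 from 49982136 to 49983337, with 1001.1 at 16 h and 1270.5 at 1.5 h. That 1 Mb window held 10 persistent regions and no Hs578T peak at either time. Chromosome 5 from 169122790 to 169123582 followed with 1013 at 16 h and 1137 at 1.5 h, and another persistent region began 74 bp from it. On chromosome 14 from 75086161 to 75087023 the scores were 929 at 16 h and 1221 at 1.5 h. Chromosome 8 from 103818418 to 103820059 held 2 peaks at each time, of which the higher scored 903 at 16 h and 1344 at 1.5 h. These 6 regions were among the 12 of the 15 with the lower score at 16 h, and the 16 h list as a whole has the lower median score, 76.6 against 88.5 at 1.5 h.

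In 3 of the 15 leading regions the 16 h score was the higher one. The widest difference among them was on chromosome 9 from 136738699 to 136740086, with 1424 at 16 h, where it ranked 7, and 969 at 1.5 h, where it ranked 32. Its peak was 1388 bp wide at 16 h and 947 bp at 1.5 h. The others were chromosome 19 from 2610975 to 2611590, with 935 at 16 h and 861 at 1.5 h, and chromosome 21 from 37802063 to 37802982, with 1082 and 1057 in the same order. The remaining 6 lay on chromosome 10 from 33269265, chromosome 20 from 56323450, chromosome 19 from 13961859, chromosome 8 from 142036643, chromosome 6 from 161838367 and chromosome 1 from 17559447. Of the 15, 8 had another persistent region within 10 kb. A Hs578T peak lay within 10 kb of 1 of them, the chromosome 19 region from 13961859, at 3.12 kb, and within 100 kb of 5.

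The very strongest of the regions held at both BT549 times were those that most often had a Hs578T peak. Over all 3628 such regions, 95.6% had none, beside Hs578T lists of only 1849 peaks at 16 h and 1373 at 1.5 h. Among the first 25 by the worse of both ranks, 14 had none, or 56.0% (37.1 to 73.3), and among the first 100, 84 had none, or 84.0% (75.6 to 89.9). From place 101 to 500 the share was 94.0% (91.2 to 95.9), and from place 501 to 1000 it was 97.0% (95.1 to 98.2). Beyond that it was 95.5% (94.0 to 96.6) up to place 2000 and 96.3% (95.3 to 97.1) for the rest. Since membership was defined by the absence of a Hs578T peak, this order is a description of the lists.

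The order of the persistent regions by score was only partly kept between the times. Across the 3468 regions, Spearman's rho between the 16 h and the 1.5 h score was 0.60. It was 0.59 across the 1505 with scores of 100 or more at both times. The points share 1 library per time and a common lower limit of about 50. Score followed width within each time, with rho of 0.76 at 16 h and 0.81 at 1.5 h, and widths at 16 h and 1.5 h correlated at 0.57.

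**Figure D2:**
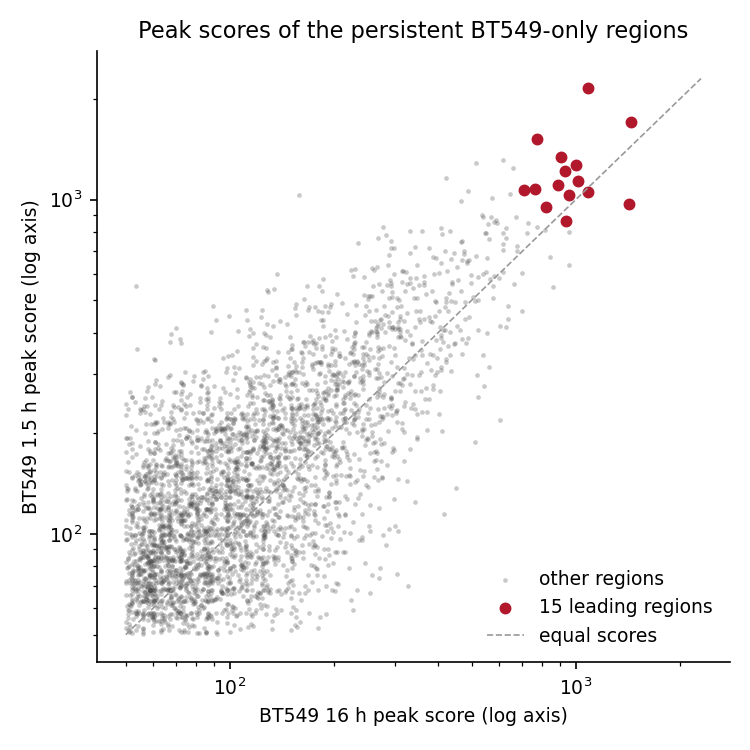
Peak score at 16 h (x axis, log) against peak score at 1.5 h (y axis, log) for the 3468 persistent BT549-only regions, each point being the highest peak of a region at each time and the dashed line marking equal scores. The 15 leading regions, in red, lie at 708 to 1445 at 16 h and 861 to 2152 at 1.5 h; most points lie above the line, that is, with the lower score at 16 h.

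To set the times side by side, each score was turned into a percentile of its own list. The median persistent region stood at percentile 68.3 at 16 h and 72.3 at 1.5 h. Per region, the 16 h percentile minus the 1.5 h percentile had a median of -1.48 points (-1.97 to -1.07), with quartiles of -17.7 and 10.3. This median was -4.70 points with scores of at least 100 in every list and -0.80 (-2.04 to 0.29) with equal numbers of peaks per list. Over the whole lists the percentile was higher at 16 h in 1523 regions, or 43.9% (42.3 to 45.6), close to the 44.3% of all regions listed at both BT549 times, of which the persistent ones are the greater part. The 160 regions with a Hs578T peak had a higher percentile at 16 h in 53.1% (45.4 to 60.7) and a median difference of 0.115 points (-0.165 to 1.77). The intervals of both shares overlap slightly, those of the medians do not, and the difference was not tested. A position within 10 points was kept by 1442 persistent regions, or 41.6%.

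Each list was cut into quartiles by score, and over all 3468 persistent regions 41.1% stood in the highest quartile at 16 h and 14.0% in the lowest. Of the 1630 persistent regions in the highest quartile of the 1.5 h list, 1060 were in the highest quartile at 16 h, or 65.0%, and 87 were in the lowest, or 5.34%. Of the 402 in the lowest quartile at 1.5 h, 119 were in the lowest at 16 h, or 29.6%, and 52 were in the highest, or 12.9%. Of the 915 regions of the second highest quartile at 1.5 h, 349 were in the same quartile at 16 h, or 38.1%, against 28.5% of all. Moves of over 50 points were seen in 131 regions towards a higher percentile at 16 h and in 198 towards a lower one.

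The regions with the largest gains in percentile at 16 h are given by their scores; a gain of that size can only start from a low percentile. On chromosome 5 from 32508157 to 32508510 the score was 180.3 at 16 h and 52.4 at 1.5 h, which is percentile 89.5 and percentile 2.38. A second region of chromosome 5, from 167190847 to 167191303, scored 182 at 16 h and 56.5 at 1.5 h. Chromosome 6 from 43989853 to 43990348 scored 189 at 16 h and 57.5 at 1.5 h. At the first of these the peak was 354 bp wide at 16 h and 236 bp at 1.5 h. The list was completed by chromosome 16 from 46403608 to 46403881, with 156 at 16 h and 52.9 at 1.5 h, and by chromosome 10 from 3269822 to 3270256, with 227 and 59.3 in the same order. The chromosome 16 region is less than 1 Mb from a gap edge, the name used here for either end of a chromosome's longest interval without a peak in any list.

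The largest losses in percentile, which can only start from a high one, are given in the same way. On chromosome 8 from 126676395 to 126677100 the score was 53.4 at 16 h, rank 7609, and 550.3 at 1.5 h, rank 148. Its peak was 271 bp wide at 16 h and 706 bp at 1.5 h. Chromosome 1 from 153538106 to 153538519 scored 50.1 at 16 h and 245 at 1.5 h, and chromosome 6 from 3912200 to 3912568 scored 51.6 at 16 h and 266 at 1.5 h. Both stood just above the caller's limit at 16 h. Chromosome 6 from 53223938 to 53224623 had 50.1 at 16 h and 227 at 1.5 h, and chromosome 5 from 15008622 to 15009031 had 50.9 at 16 h and 236 at 1.5 h. These last 4 would have left the persistent set with a slightly higher limit at 16 h.

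The limits of membership were close for a small number of regions. The lower of both scores was under 55 in 232 persistent regions, or 6.69%, and the lowest was 50.05, at 16 h, on chromosome 13 from 101044968 to 101045533, which scored 175 at 1.5 h. On the side of the lines, 26 persistent regions, or 0.750%, had a Hs578T peak within 500 bp. The closest was chromosome 1 from 200348353 to 200348985, with 347 at 16 h and 228 at 1.5 h, where a Hs578T peak lay 2 bp away. Just outside, chromosome 19 from 44174212 to 44174586 shared 10 bp with a Hs578T peak and so was no member, with 54.0 at 16 h and 58.1 at 1.5 h. On the side of the times, 257 of the regions listed only at 16 h, or 5.99% (5.32 to 6.74), had a 1.5 h peak within 500 bp. Of the regions listed only at 1.5 h, 440, or 8.27% (7.56 to 9.04), had a 16 h peak that close.

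The rule joins peaks of the times only where they overlap, which bounds how far apart they can lie, so their positions are given as a description. The centres at 16 h and 1.5 h were a median of 53 bp apart (51 to 55.5), with quartiles of 23.5 and 98 bp, and 178 regions had centres over 200 bp apart. The shift had no side, since the 16 h centre lay at the higher coordinate in 1714 regions and at the lower in 1735. The median 16 h peak was covered by the 1.5 h peak over 83.1% of its length, and the median 1.5 h peak by the 16 h peak over 83.1%. At least 50% of both peaks was shared in 2805 regions, or 80.9% (79.5 to 82.2). That share was 69.5% (66.9 to 72.0) where the lower score was under 75 and 96.6% (94.6 to 97.9) where it was 200 or more. The distance between centres hardly followed the score, at a median of 57.5 bp (53.5 to 64) for a lower score under 75 and 50.5 bp (46 to 57) for 200 or more.

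**Figure D3:**
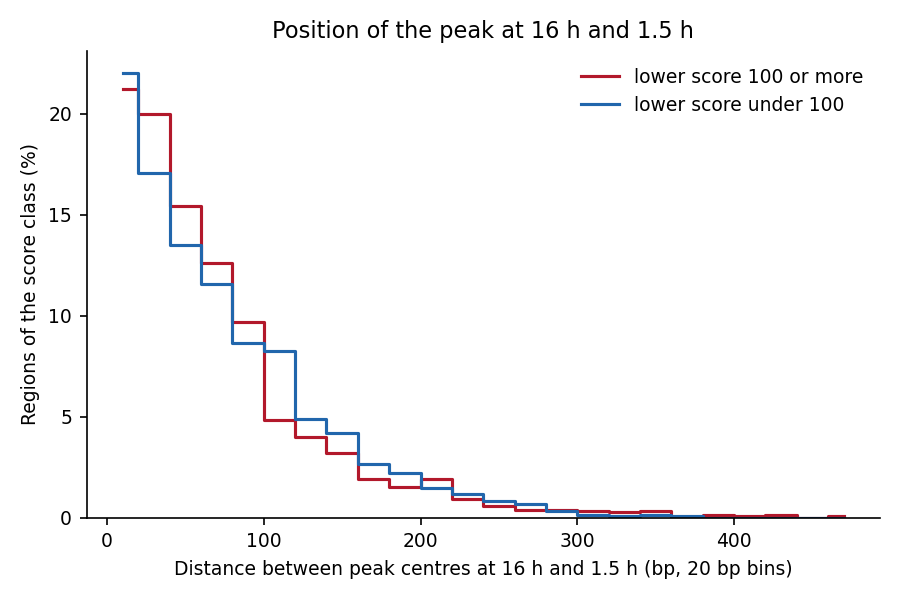
Distance between the centres of the highest peaks at 16 h and at 1.5 h (x axis, bp, in bins of 20 bp) for persistent BT549-only regions, as a share of the regions (y axis, percent) whose lower score is 100 or more, or under 100. Both curves fall steadily from 0, and few regions lie beyond 200 bp, 178 of 3468 in all.

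Widths differed in either direction between the times. The 16 h peak was wider in 1774 persistent regions, or 51.2%, and narrower in 1679, or 48.4%, with a median difference of 3 bp (-1 to 7), 16 h minus 1.5 h, and quartiles of -80 and 80 bp. In 758 regions, or 21.9%, the 16 h peak held the whole 1.5 h peak, and in 744, or 21.5%, it lay wholly inside it. A single peak at each time made up 3175 of the regions. There were more peaks at 16 h than at 1.5 h in 126 and fewer in 138.

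The spread of the persistent regions over the chromosomes was much like that of the other BT549-only regions. Chromosome 1 had the most, 335, then chromosome 5 with 298, chromosome 6 with 263 and chromosome 8 with 253. Taking the end of the last peak as the end of each chromosome, the mean density was 1.14 per Mb. Leaving out chromosome Y, which had 1 region, it ranged from 0.467 per Mb on X and 0.587 on chromosome 15 to 1.73 on chromosome 8 and 1.82 on chromosome 20. Across 23 chromosomes the density correlated with that of BT549-only regions listed at 1 time with Spearman's rho of 0.89, a description of points that share the libraries and the genome of the line. Against the 246 regions listed only in Hs578T and at both times, the rho of the shares per chromosome was 0.51. Shares, unlike densities, were not divided by chromosome length, so this rho is not on the scale of the one before.

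The share of BT549-only regions that were persistent was 34.1% (29.1 to 39.5) on chromosome 18, 33.8% (26.5 to 42.0) on chromosome 22 and 33.4% (28.6 to 38.6) on chromosome 20. It was 22.02% (17.9 to 26.8) on X, 22.3% (18.5 to 26.6) on chromosome 13 and 23.04% (20.6 to 25.6) on chromosome 8. Between the lines the chromosomes differed more. Chromosome 3 held 6.60% of the persistent BT549-only regions and 1.63% of the persistent Hs578T-only ones, and chromosome 20 held 3.29% and 0.407%. Chromosome 7 held 4.93% against 13.4% in Hs578T-only regions, and chromosome 2 held 5.25% against 10.6%. The Hs578T counts are small, with 33 regions on chromosome 7 and 1 on chromosome 20, and no test of the difference was made.

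**Figure D4:**
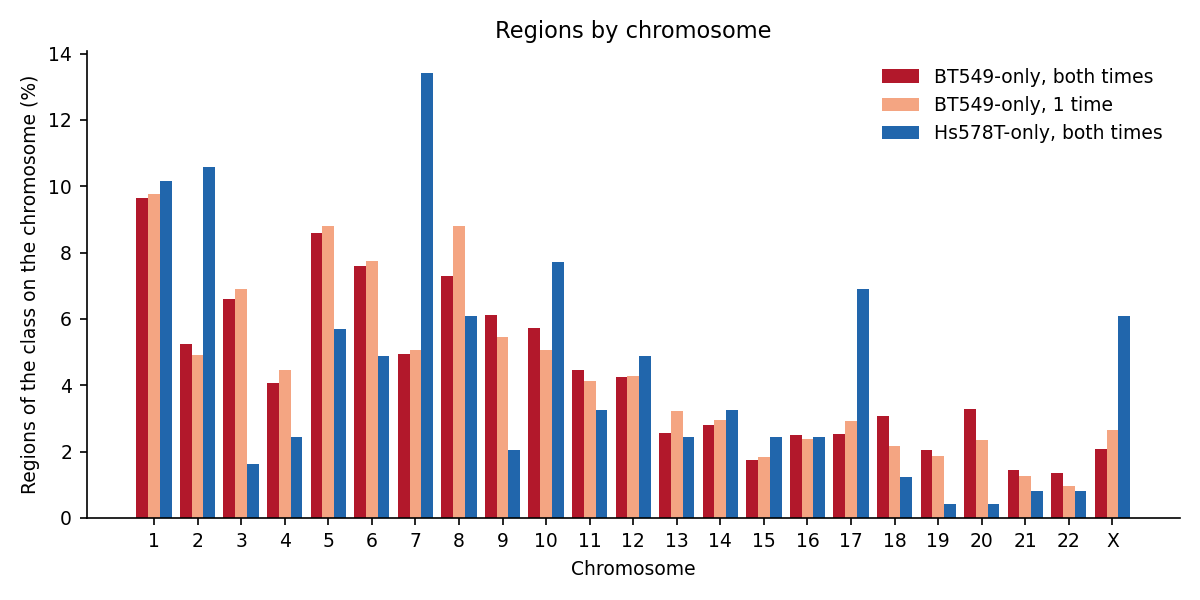
Share of regions on each chromosome (y axis, percent of the class, x axis, chromosomes without Y) for persistent BT549-only regions, BT549-only regions listed at 1 time, and Hs578T-only regions listed at both times. The first 2 classes run close together, while Hs578T-only regions are more frequent on chromosomes 2 (10.6% against 5.25%) and 7 (13.4% against 4.93%) and less so on 3 (1.63% against 6.60%).

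Persistent regions lay near each other. The nearest other persistent region was a median of 41.8 kb away, against 171 kb between regions listed only at 16 h and 86.7 kb between regions listed only at 1.5 h, although the persistent class is the smallest. Within 10 kb, 1068 persistent regions, or 30.8% (29.3 to 32.4), had another one. Of the regions listed only at 16 h 8.95% (8.14 to 9.84) had another of their class that close, and of those listed only at 1.5 h 21.0% (19.9 to 22.1). With the same number of highest-scoring peaks from each list, 15.7% (13.3 to 18.5) of 745 persistent regions had another within 10 kb. The shares were 3.99% (2.65 to 5.96) of 552 regions listed only at 16 h and 6.07% (4.38 to 8.36) of 560 listed only at 1.5 h. The persistent class is the largest in that setting, and a larger class tends to have closer neighbours. Over the whole lists the share was 47.0% (37.5 to 56.7) in the first 100 persistent regions by the worse of both ranks, 36.3% (33.3 to 39.5) at places 101 to 1000 and 27.0% (24.8 to 29.3) beyond place 2000. A BT549-only region of 1 time lay within 10 kb of 37.9% (36.3 to 39.5) of the persistent regions. For 474 persistent regions, or 13.7% (12.6 to 14.9), another lay within 1 kb, so neighbouring calls need not be separate sites.

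**Figure D5:**
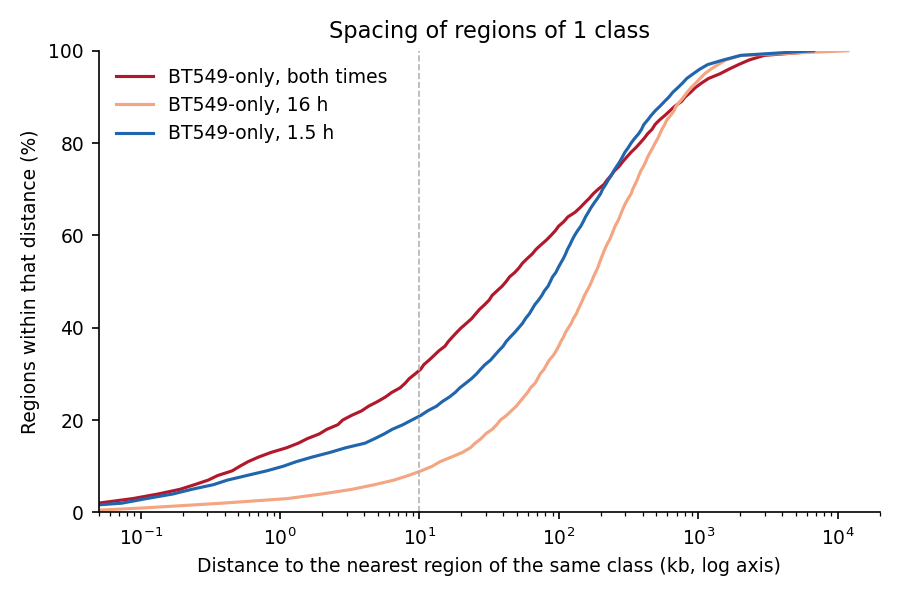
Cumulative share of regions (y axis, percent) by distance to the nearest region of the same class (x axis, kb, log) for persistent BT549-only regions and for those listed only at 16 h or only at 1.5 h; the dashed line marks 10 kb. At 10 kb the curves stand at 30.8% for persistent regions, 8.95% for 16 h and 21.0% for 1.5 h.

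Joined over gaps of up to 10 kb, the persistent regions formed 468 runs of 2 or more and 95 runs of 3 or more. Of the 8 runs with 5 or more, which were singled out after their counts were seen, 3 lay within 1 Mb of a gap edge. The run with the most regions, 11, on chromosome 10 from 42379847 to 42400684, is one of these. Its scores stayed between 63.8 and 198 at 16 h and between 69.3 and 229.5 at 1.5 h. Each of its regions had a Hs578T peak within 10 kb, at distances from 0.146 to 7.316 kb. The other runs near a gap edge were on chromosome 18 from 18516380 and chromosome 7 from 61967373. In all 88 persistent regions, or 2.54%, lay that near a gap edge, and 61.4% (50.9 to 70.9) of them had another within 10 kb, against 30.0% (28.5 to 31.6) of the rest.

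Among these runs of 5 or more, the one away from gap edges with the best-ranked region was on chromosome 5 from 135342234 to 135356666, with 5 persistent regions in 14.4 kb. All of them scored above 200 at both times. From the lower coordinate upward they scored 567, 212, 269.9, 771 and 627 at 16 h. The same regions scored 885, 253, 336, 827 and 766 at 1.5 h. The outermost regions and the one from 135352504 were thus the strong ones at both times, and the regions from 135347026 and 135349579 were the weaker ones at both. The closest Hs578T peak was 3043 kb away from the first region.

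A run on chromosome 11 from 122051032 to 122068182 was less even between the times. Its first region scored 454 at 16 h and 628 at 1.5 h, and that from 122059873 scored 168 at 16 h and 374 at 1.5 h. The region from 122058108 to 122058513 scored 56.9 at 16 h and 201 at 1.5 h. All 5 regions of that run had the lower score at 16 h. The nearest Hs578T peak was 944 kb from the first of them.

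By fixed windows of 1 Mb, chromosome 9 from 132000001 to 133000000 held the most persistent regions, 16, with 4 BT549-only regions listed only at 16 h and 4 listed only at 1.5 h. Their scores ran from 66.9 to 616 at 16 h (median 117) and from 59.6 to 796 at 1.5 h (median 143). The strongest, from 132220888 to 132221901, scored 616 at 16 h and 796 at 1.5 h. A second strong one, from 132245564 to 132246570, scored 483 at 16 h and 372 at 1.5 h, and another, from 132096211 to 132097074, scored 446 at 16 h and 369.6 at 1.5 h. Those 2 had the higher score at 16 h, unlike the first. In the same window Hs578T had 2 peaks at 16 h and 3 at 1.5 h, one of them 226 bp from the persistent region that begins at 132250185.

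The window of chromosome 10 from 42000001 to 43000000 was next with 14 persistent regions, all near a gap edge and 11 of them in the run described above. There Hs578T had 0 peaks at 16 h and 2 at 1.5 h. Chromosome 11 from 65000001 to 66000000 followed with 13, beside 9 BT549-only regions listed only at 16 h and 5 listed only at 1.5 h. Its strongest region, from 65326222 to 65327110, scored 515 at 16 h and 677 at 1.5 h. It was flanked on both sides, from 65325626 to 65326220 with 202 at 16 h and 211 at 1.5 h, and from 65327484 to 65328375 with 334 at 16 h and 238 at 1.5 h. The 3 calls are 1 bp and 373 bp apart. Hs578T had 3 peaks at 16 h and 1 at 1.5 h in that window.

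The distance to Hs578T peaks was compared with that of other BT549-only regions, without a test. The nearest Hs578T peak was a median of 379 kb from a persistent region, against 446 kb from regions listed only at 16 h and 397 kb from regions listed only at 1.5 h. A Hs578T peak lay within 10 kb of 130 persistent regions, or 3.75% (3.17 to 4.43), of 2.89% (2.43 to 3.44) of those listed only at 16 h, and of 4.30% (3.79 to 4.88) of those listed only at 1.5 h. Within 100 kb one lay for 20.3% (18.99 to 21.7) of the persistent regions, 17.7% (16.6 to 18.9) of those listed only at 16 h and 19.1% (18.1 to 20.2) of those listed only at 1.5 h. Among the first 100 persistent regions 4% (1.57 to 9.84) had one within 10 kb, and beyond place 2000 3.88% (3.01 to 5.00) had one.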

How the data were processed

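SMAD2/3 ChIP-seq peak lists of BT549 and Hs578T cells at 16 h and 1.5 h of TGFβ3 were used, 1 library each. MACS 1.4.2, Bowtie 1.1.0, Picard and the hg19 build are named in the submitters' processing notes, with no settings; what Picard did, and whether the input entered the peak calling, is not stated in them. Peaks were called per sample, since the authors deposited 1 list per library with a score per peak. From these lists regions, classes, percentiles within a list, distances and 95% Wilson intervals were computed in Python 3.11.15 with numpy 2.4.6, scipy 1.17.1 and pandas 2.3.3; plots used matplotlib 3.10.9. A region with several peaks at a time was given its highest. Positions count from 1. The class code, tested on simulated data, recovered 200 of 200 planted regions of the persistent class. The planted peaks of a region overlapped by design, so this checks the code only and not calls that lie side by side.

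The members and lists were chosen with earlier results of these data known. Named regions are the 15 best by the worse of both ranks, the 5 largest percentile changes in each direction among the 2611 regions scoring 100 or more at either time, and the 3 fullest 1 Mb windows. The planned promoter shares, motif shares and gene lists need an hg19 annotation or sequence, were not computed, and no sequence is printed.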

Additional observations from a re-analysis of the deposited data

How the results depend on the processing

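The number of persistent BT549-only regions was 1545 with scores of at least 100 in every list and 745 with an equal number of highest-scoring peaks (1373) per list, and between 2912 and 3467 under the other 6 alternatives. Their share of the BT549-only regions was 31.7% with scores of at least 100, 20.5% when 50% of both peaks had to overlap, 28.2% when peaks within 500 bp were joined, 40.1% with equal numbers of peaks and 29.8% without peaks under 150 bp. The median percentile difference, 16 h minus 1.5 h, stayed below 0 under all 8 alternatives; it was -4.70 points with scores of at least 100 and -0.80 points with equal numbers of peaks, where its interval reaches 0.29. The median distance between centres was 50 bp with scores of at least 100, 42.5 bp with 50% overlap, 59 bp with joining within 500 bp and 49 bp with equal numbers. The share of persistent regions within 10 kb of another was 22.5%, 29.0%, 23.4% and 15.7% under these same 4 settings in that order, and 52.6% lay within 50 kb. The first and last of those settings leave fewer regions. The 10 kb share of single-time regions with equal numbers was added after seeing the data. Leaving out gap edges, chromosome Y, or regions with a Hs578T peak within 10 kb moved none of these shares and medians beyond its interval. The number of persistent regions, which has no interval, was 3380, 3467 and 3338 in that order. Depth is unknown, there is 1 library per line and time, and absence from a list is a threshold on score. No paired analysis was possible because the groups share fewer than 2 replicate numbers and no test was made.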

Other observations

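Further runs of 5 persistent BT549-only regions were found away from gap edges. On chromosome 15 from 90701320 to 90728535, a stretch of 27.2 kb, the region with the highest 16 h score, from 90717632 to 90718251, scored 344 at 16 h and 464 at 1.5 h, and that from 90708755 to 90709487 scored 288 at 16 h and 507 at 1.5 h. All regions of that run had the lower score at 16 h. On chromosome 10 from 75647048 to 75666889, a stretch of 19.8 kb, the region from 75654172 to 75654749 scored 376 at 16 h and 252 at 1.5 h, while the other 4 had the lower score at 16 h. Chromosome 9 from 132244283 to 132259262, a stretch of 14.98 kb, also held such a run, inside the fullest 1 Mb window. Its regions had a Hs578T peak 0.226 to 6.231 kb away. The nearest lay 36.3 kb from the chromosome 15 run and 680.5 kb from the chromosome 10 run.

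Recurrence of BT549-only regions of like score differed with peak width. Peaks under 150 bp recurred least, except at 1.5 h scores from 50 to 75. Among BT549-only regions with a 16 h score from 100 to 200, 40 of 586 with a peak under 150 bp were listed at 1.5 h, or 6.83% (5.05 to 9.16), against 769 of 883 with a peak of 300 to 500 bp, or 87.1% (84.7 to 89.1). For 1.5 h scores in that range the shares listed at 16 h were 8.38% (6.32 to 11.03) of 537 narrow and 65.3% (62.6 to 67.9) of 1213 wide peaks. With 16 h scores of 200 or more, 1 of 22 narrow peaks was listed at 1.5 h, against 176 of 176 of 300 to 500 bp. With 1.5 h scores of 200 or more, 3 of 62 narrow peaks were listed at 16 h, against 457 of 504 of 300 to 500 bp. At 1.5 h scores from 50 to 75, by contrast, 30.05% (24.2 to 36.7) of peaks under 150 bp recurred, 17.2% (15.8 to 18.6) of those of 150 to 300 bp and 32.6% (25.3 to 40.9) of those of 300 to 500 bp. At 16 h scores from 50 to 75 these shares were 20.7% (16.7 to 25.4), 23.8% (22.4 to 25.4) and 58.4% (53.2 to 63.4). For scores from 75 to 100 they were, in the same order, 14.2%, 43.1% and 71.7% at 16 h and 22.4%, 26.6% and 41.3% at 1.5 h. Peaks under 150 bp at both times made up 109 persistent regions, or 3.14% (2.61 to 3.78). In 1 persistent region, on chromosome 6 from 119942107 to 119942634, the highest peaks of the times shared no base and were linked by other peaks, and they scored 63.04 at 16 h and 123 at 1.5 h.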
